A study of Mus musculus with 10 samples.

Results

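Complex I of the respiratory chain (NADH:ubiquinone oxidoreductase) was followed through its genes in microglia, the resident immune cells of the brain. Members were the 45 symbols, of 18292 in the count tables, that begin with Nduf followed by a, b, c, s or v. Of these, 36 encode subunits of the complex and 7 (Ndufaf1 to Ndufaf7) encode assembly factors, which help to build it and are not part of the finished enzyme. The other 2 were kept apart: Ndufa4, which is now placed in complex IV, and Ndufa4l2, its paralogue. All 45 passed the filter on low counts. Ndufaf8 is listed in all 10 tables under its older symbol 1810043H04Rik and so was not matched by the rule, and no row was named Ndufb1.

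Complex I takes electrons from NADH, passes them along iron-sulfur clusters to ubiquinone and pumps protons across the inner mitochondrial membrane. Its core subunits carry out catalysis and pumping and are conserved from bacteria. Those of the peripheral arm, which lies in the matrix, are encoded in the nucleus, and those of the membrane arm in mitochondrial DNA. The accessory subunits surround this core and serve assembly, stability and regulation. The N module of the peripheral arm binds NADH, the Q module reduces ubiquinone, and the membrane arm is divided into a proximal and a distal part. Microglia are known to shift between oxidative phosphorylation and glycolysis with their state, and complex I is the entry point for most of the electrons of the first of these.

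The cells were C57BL/6 microglia sorted as live, CD11b high and CD45 intermediate, and 10x Genomics 3' libraries were made from them, 2 for each of 5 groups. Adult microglia came directly from the brains of mice of 10 to 15 weeks. *In vitro* microglia were collected from the medium of mixed glial cultures made from cortex at postnatal day 2 and grown for about 3 weeks. Slice microglia came from brain slices of pups of postnatal days 1 to 4, cultured with added PDGF for 1 day, 1 week or 3 weeks, with several slices pooled where needed. All cultured groups thus began from newborn mice and the adult group did not, so culture and the age of the donor cannot be told apart in any comparison with adult. The libraries of a group are described as independent samples, but the sources used here do not name separate animals or cultures for them. The p-values measure the spread between libraries, which may be in part technical.

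After the filter on cells, 19059 of 19637 barcodes were kept. Libraries held 61 to 3799 cells and 385373 to 39689540 UMIs, and the smallest were the slice 1 week libraries with 148 and 61 cells. A median cell held 3257 and 1858 UMIs in the adult libraries, 12858 and 13966 *in vitro*, and 5266 to 8335 in slices. No more than 23 cell barcodes were shared by any pair of libraries. The 10 microglia markers (among them P2ry12 and Tmem119) summed to 47180 to 47822 CPM (UMIs scaled to the library's total alone, as for all marker sums) in adult, 2093 to 2495 *in vitro*, 4246 to 5090 at 1 day, 9171 to 10823 at 1 week and 16319 to 19029 at 3 weeks. The 10 neutrophil markers summed to 7762 to 22520 CPM at 1 day and 955 to 40352 at 1 week, and to at most 8.39 in the other groups. The 9 monocyte and border macrophage markers summed to 10.6 to 17.2 CPM in adult, 2097 to 2227 *in vitro*, 419 to 434 at 1 day, 158 to 328 at 1 week and 29 to 73.5 at 3 weeks. The 6 neuron markers summed to 352 to 545 CPM at 1 week and to at most 42.6 in the other groups. The 7 astrocyte markers summed to 148 to 153 CPM in adult, 5.04 to 5.62 *in vitro* and 7.13 to 33.8 in slices. Those of oligodendrocytes and endothelial cells were at 136 to 155 and 31.9 to 32.9 CPM in adult and at 44.9 to 135 and 3.83 to 31.5 in culture. The 5 erythroid markers reached 1852 CPM in 1 adult library and 3463 in 1 slice 1 day library, and were at most 1.02 in the other 8. The 25 cell cycle genes summed to 118 to 130 CPM in adult and to 432 to 970 in all cultured libraries. The study label of the first adult library and of the first slice 3 weeks library differed from the label of the other 8.

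Subunit transcripts took a larger part of the RNA in every cultured library than in either adult library. In adult microglia, 0.520% and 0.534% of all UMIs came from the 36 subunits. The share was 0.843% and 0.865% *in vitro*, 0.802% and 0.826% after 1 day in slices, 0.669% and 0.712% after 1 week, and 0.733% and 0.687% after 3 weeks. The *in vitro* and 1 day groups were the highest and did not overlap with the 1 week and 3 weeks groups, while the last pair overlapped. With 2 libraries against 2, an exact two-sided permutation test cannot give a p below 0.333, so no test was made of these shares. Shares are relative to all RNA captured, so more complex I mRNA and less of other RNA cannot be told apart. The summed monocyte and border macrophage markers, like these shares, were higher in all cultured libraries than in adult and highest *in vitro*. Their members did not move together: Ccr2 and Plac8 were called lower *in vitro* and at 3 weeks, where Mrc1 and Pf4 were called higher. At 1 day and 1 week 0 were called lower. The summed astrocyte markers were lower in all cultured libraries and lowest *in vitro*. Of the 4 tested, only Slc1a3 was called lower, in each cultured group. Aldoc was called higher *in vitro* and at 1 week, Gfap at each slice time and Gja1 at 1 day. The summed cell cycle genes were higher in all cultured libraries too. Mitochondrial UMIs took 1.04% and 1.35% in adult, 2.33% and 2.49% *in vitro* and 1.33% to 1.88% in slices. Early response genes, which dissociation can induce, summed to 884 to 931 CPM in adult, 310 to 363 *in vitro*, 924 to 1286 at 1 day, 404 to 433 at 1 week and 597 to 737 at 3 weeks. The part of these measures in the result was not tested. Per cell, subunit UMIs numbered 13.6 ± 4.69 in adult and 123 ± 6.72 *in vitro* (SD, n = 2), beside the gap in total UMIs per cell given above. The share of the 7 assembly factors was 0.0215% ± 0.00169 in adult, 0.0142% ± 0.000662 *in vitro*, 0.0203% ± 0.000116 at 1 day, 0.0136% ± 0.000932 at 1 week and 0.0163% ± 0.000227 at 3 weeks (SD, n = 2).

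**Figure D1:**
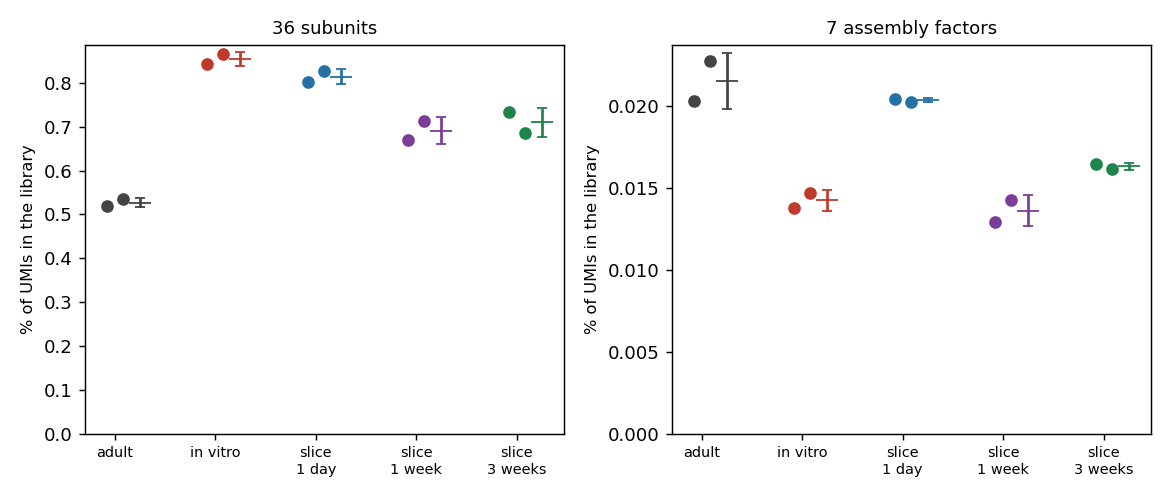
Percent of all UMIs in each library that came from the 36 complex I subunits (left) and the 7 assembly factors (right). Points are libraries, and the bar beside them is the mean with its SD (n = 2). Every cultured library lies above both adult libraries for the subunits, from 0.669% to 0.865% against 0.520% and 0.534%, while the assembly factors had a mean of 0.0215% in adult and of 0.0136% to 0.0203% in the cultured groups.

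In the comparison of *in vitro* with adult microglia, 28 of 36 subunits were higher and 0 were lower. A gene was called when edgeR's quasi-likelihood test gave an FDR below 5% over all 12157 genes tested and the fold change was above 1.5. Of all genes tested, 22.4% were called higher and 28.5% lower. The median log2 fold change of the subunits was 1.03, and that of all genes was -0.11. Higher calls were made for 26 of 29 accessory subunits but for 2 of 7 core subunits. The 3 accessory subunits not called were Ndufa9 (log2 fold change -0.25 ± 0.14 SE), Ndufa10 (0.44 ± 0.13) and Ndufb3 (0.56 ± 0.13), of which the last 2 passed the FDR (edgeR adjusted p = 0.0132 and 0.00376) with a fold change under 1.5. With the libraries of 1 study label alone, 28 subunits were called higher. Leaving out each library in turn gave 25 to 31 higher calls. Scaled by library size alone, 20 subunits were called higher, 0 of them core, where 2017 of 12157 genes were called higher. The median log2 fold change was then 0.72 for subunits and -0.42 for all genes.

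**Figure D2:**
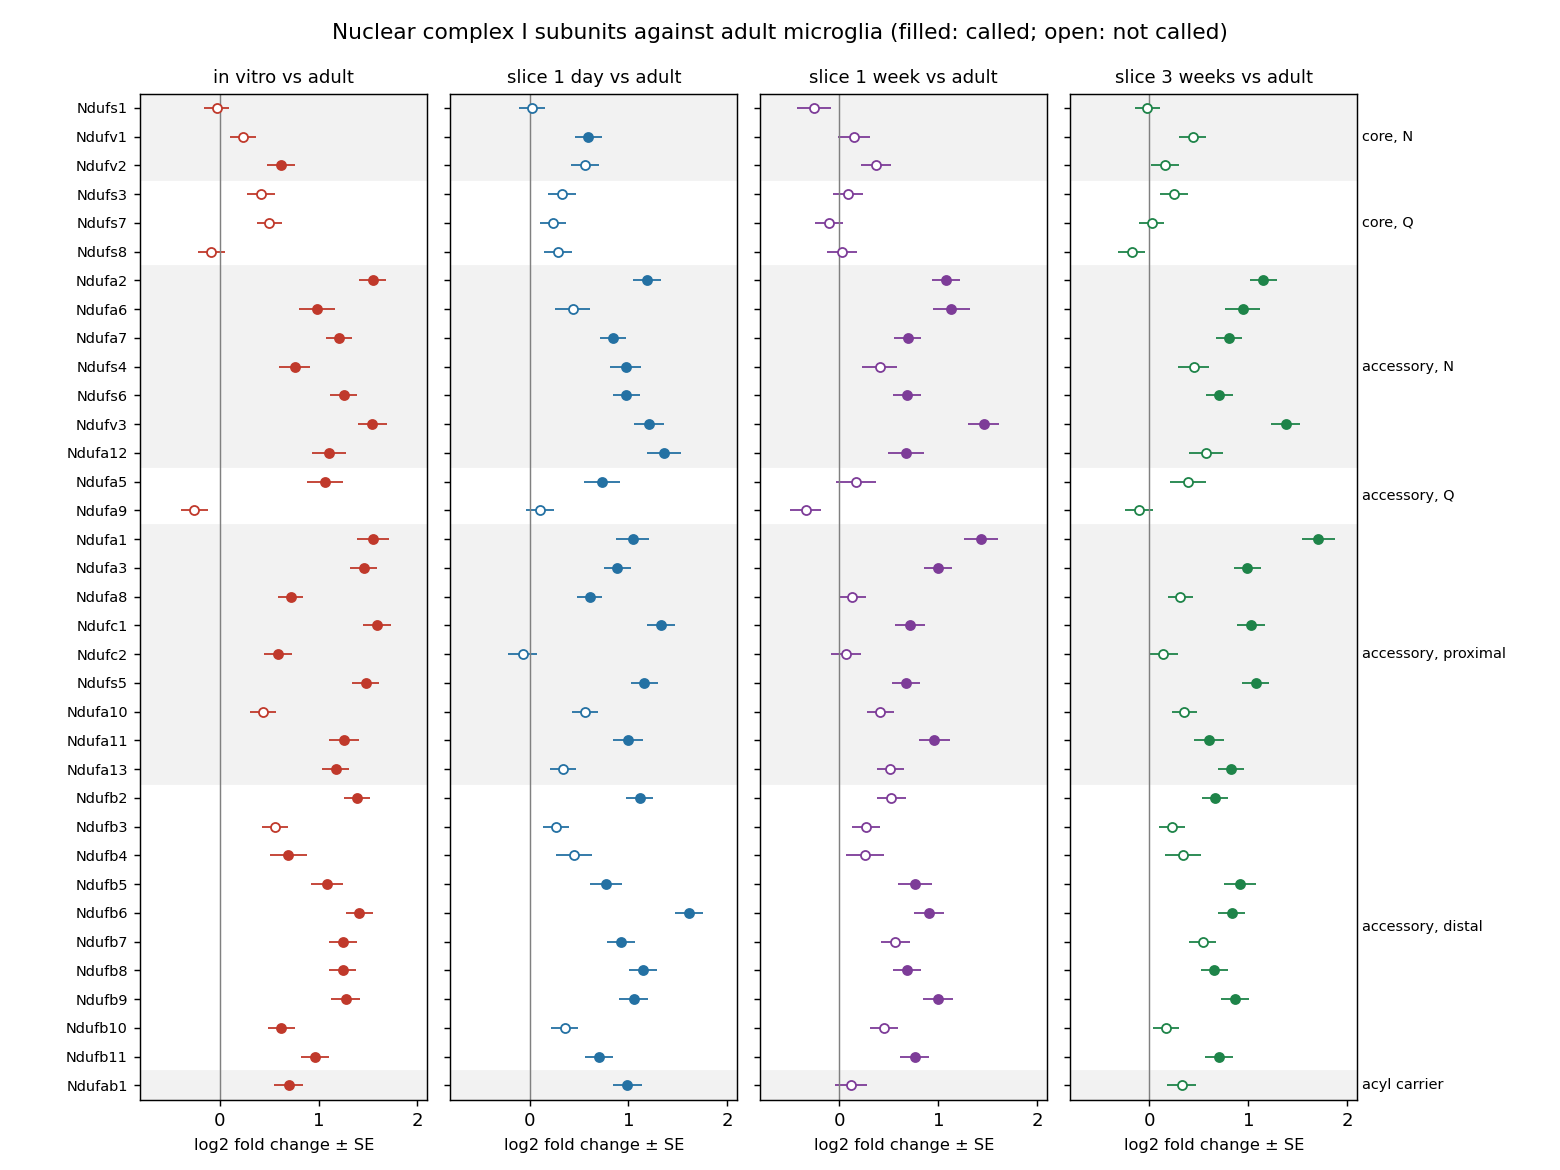
Log2 fold change from edgeR (± SE derived from its F statistic) of 35 nuclear subunits in the 4 cultured groups against adult, ordered by place in the complex. Filled points were called and open points were not. The 6 core subunits at the top lie between -0.25 and 0.62, whereas accessory subunits reach 1.59 *in vitro* and 1.71 at 3 weeks.

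Among subunits, the 6 largest differences between *in vitro* and adult microglia were in accessory subunits. Ndufc1, a small membrane-arm subunit, stood at 95.5 and 103 CPM (counts scaled to library size with TMM factors, as for all levels of members except Ndufa4l2) in the adult libraries and at 286 and 313 CPM *in vitro*. In slices its level was 248 and 251 CPM (1 day), 177 and 146 (1 week) and 199 and 207 (3 weeks). All 8 cultured libraries lay above both adult libraries, with a log2 fold change *in vitro* of 1.59 ± 0.14 (edgeR adjusted p = 7.06e-06), or 3.01-fold.

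Ndufa1, an X-linked membrane-arm subunit needed for assembly, stood at 98.6 and 83.6 CPM in adult, 268 and 266 *in vitro*, and 196 and 179 (1 day), 256 and 235 (1 week) and 337 and 259 (3 weeks) in slices. Unlike Ndufc1 it was highest in a 3 weeks library. Its log2 fold change against adult was 1.55 ± 0.16 *in vitro* and 1.71 ± 0.17 at 3 weeks (edgeR adjusted p = 2.37e-05 and 4.18e-05).

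Ndufa2 and Ndufv3 belong to the N module, where Ndufv3 sits on the NADH-binding flavoprotein. Ndufa2 stood at 221 and 198 CPM in adult, 590 and 635 *in vitro*, 460 and 495 after 1 day in slices, 448 and 435 after 1 week, and 453 and 479 after 3 weeks. Ndufv3 stood at 121 and 124 CPM in adult, 344 and 369 *in vitro*, and 274 and 291 (1 day), 366 and 302 (1 week) and 298 and 338 (3 weeks) in slices. Neither overlapped with adult in any cultured group. The log2 fold change of Ndufv3 was 1.54 ± 0.15 *in vitro*, 1.21 ± 0.15 at 1 day, 1.46 ± 0.15 at 1 week and 1.38 ± 0.15 at 3 weeks, and Ndufv3 was called in neither comparison between cultured groups. That of Ndufa2 was 1.55 ± 0.14, 1.19 ± 0.14, 1.07 ± 0.14 and 1.15 ± 0.14 in the same order.

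Ndufs5, which faces the intermembrane space, and Ndufa3 belong to the proximal membrane arm. Ndufs5 stood at 116 and 114 CPM in adult, 304 and 337 *in vitro*, 250 and 264 after 1 day in slices, 175 and 194 after 1 week, and 254 and 232 after 3 weeks. Ndufa3 stood at 170 and 148 CPM in adult, 429 and 445 *in vitro*, and 299 and 291 (1 day), 316 and 320 (1 week) and 334 and 299 (3 weeks) in slices. Both were called higher in all 4 cultured groups, with log2 fold changes *in vitro* of 1.48 ± 0.14 and 1.46 ± 0.14. The calls of Ndufs5 and Ndufc1 at 1 week (0.68 ± 0.14 and 0.71 ± 0.15) each rested on 1 library: without slice 1 week replicate 2 Ndufs5 fell under the fold threshold at 0.57, and without replicate 1 Ndufc1 did so at 0.58.

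Among 6 nuclear core subunits of the peripheral arm, log2 fold changes against adult stayed between -0.25 and 0.62. In the N module, Ndufv1, which binds FMN and NADH, stood at 49.7 and 50.7 CPM in adult, 55.4 and 62.9 *in vitro*, 70.0 and 81.1 after 1 day in slices, 58.3 and 51.2 after 1 week, and 66.5 and 69.5 after 3 weeks. It was called higher at 1 day alone (log2 fold change 0.59 ± 0.14, edgeR adjusted p = 0.00394), at the edge of the fold threshold, and the call was lost without slice 1 day replicate 2 (0.54). The same call was also lost with library size alone, with the study label as a term, within 1 study label and in thinned cells without cell cycle UMIs. Ndufv2, its iron-sulfur partner, stood at 111 and 121 CPM in adult, 177 and 180 *in vitro*, and 163 and 179 (1 day), 143 and 159 (1 week) and 142 and 118 (3 weeks) in slices. It was called *in vitro* (0.62 ± 0.14, adjusted p = 0.00368), a call lost with library size alone (0.31), within 1 study label (0.55) and in thinned cells without cell cycle UMIs (0.55). Its 3 weeks values overlapped with adult.

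Ndufs1, the largest subunit and a carrier of several iron-sulfur clusters, was nearly level across the groups. It stood at 39.9 and 43.1 CPM in adult, 41.2 and 40.0 *in vitro*, 40.1 and 44.1 after 1 day in slices, 35.6 and 33.3 after 1 week, and 39.3 and 42.3 after 3 weeks. Its log2 fold changes against adult were -0.03 ± 0.12, 0.03 ± 0.13, -0.25 ± 0.17 and -0.02 ± 0.12 in that order of groups, and none was called.

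In the Q module, Ndufs3 stood at 132 and 126 CPM in adult, 176 and 170 *in vitro*, 144 and 179 after 1 day in slices, 137 and 136 after 1 week, and 159 and 146 after 3 weeks. Ndufs7, which holds the last iron-sulfur cluster before ubiquinone, stood at 157 and 161 CPM in adult, 223 and 227 *in vitro*, and 177 and 197 (1 day), 153 and 141 (1 week) and 161 and 161 (3 weeks) in slices. Ndufs8, another iron-sulfur subunit, stood at 144 and 163 CPM in adult, 144 and 145 *in vitro*, 184 and 189 after 1 day in slices, 143 and 171 after 1 week, and 140 and 131 after 3 weeks. None of these 3 was called in any of the 6 comparisons. Ndufs3 and Ndufs7 passed the FDR *in vitro* against adult (adjusted p = 0.0258 and 0.00665) with log2 fold changes of 0.42 ± 0.14 and 0.50 ± 0.13, under the fold threshold.

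In slice microglia against adult, higher calls were made for 22 of 36 subunits at 1 day, 17 at 1 week and 17 at 3 weeks, and 0 were lower at each time. Of all genes, 24.9% were called higher and 25.3% lower at 1 day. At 1 week these were 15% and 13.6%, and at 3 weeks 17.9% and 17.5%. Accessory subunits made up 21, 16 and 17 of these calls and core subunits 1, 1 and 0. The median log2 fold change was 0.93, 0.68 and 0.66 for accessory subunits and 0.33, 0.09 and 0.16 for core subunits. Under scaling by library size alone, the core median turned to -0.12 at 1 week and -0.04 at 3 weeks. Higher calls of subunits then numbered 19 at 1 day, 8 at 1 week and 12 at 3 weeks. Of all 12157 genes, 2723, 1518 and 1705 were called higher on that scale. All 4 of these comparisons use the same adult libraries, so their values stand side by side and are not independent. Within the pairs of libraries that share a study label, the median subunit log2 ratio at 3 weeks was 0.63 for replicate 1 over adult replicate 1 and 0.47 for replicate 2 over adult replicate 2.

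By place in the complex, counts of subunits called higher were read beside the shares of all genes, 22.4% *in vitro*, 24.9% at 1 day, 15% at 1 week and 17.9% at 3 weeks. All 7 accessory subunits of the N module were higher *in vitro*, 6 at 1 day, 6 at 1 week and 5 at 3 weeks, with medians of 1.20, 0.98, 0.69 and 0.80. Of the 9 of the proximal membrane arm, 8, 6, 5 and 6 were higher, with medians of 1.26, 0.89, 0.68 and 0.83. Of the 10 measured in the distal membrane arm, 9, 7, 5 and 6 were higher, with medians of 1.17, 0.85, 0.62 and 0.66. The pair of the Q module did not move together. Ndufa5 was higher *in vitro* (1.07 ± 0.18) and at 1 day (0.73 ± 0.18), whereas Ndufa9 stood at 131 and 130 CPM in adult and 108 and 111 *in vitro* and was called in no comparison. Ndufab1, the mitochondrial acyl carrier protein that sits in both arms and also serves fatty acid synthesis, was higher *in vitro* (0.70 ± 0.15) and at 1 day (0.99 ± 0.15), and stood at 0.12 ± 0.16 at 1 week and 0.33 ± 0.15 at 3 weeks without a call. Reads of Ndufab1 could also come from an annotated pseudogene, Ndufab1-ps. The exons of Ndufb2, Ndufb8 and Ndufb9 overlap on the same strand with other annotated genes (Gm42420, Gm20538 and Gm49356), so their counts may be incomplete.

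The make-up of subunit RNA differed between adult and cultured microglia. Core genes gave 15.9% and 16.8% of subunit UMIs in adult. They gave 10.9% and 10.6% *in vitro*, and 12.1% and 12.7% (1 day), 11.6% and 13.0% (1 week) and 11.8% and 11.2% (3 weeks) in slices. Every cultured library was below both adult libraries, and the exact permutation test of 2 against 2 cannot fall below p = 0.333. In summed CPM, accessory subunits went from 3928 ± 51.2 in adult to 8406 ± 296 *in vitro* (2.14 times), 6925 ± 226 at 1 day (1.76 times), 6212 ± 140 at 1 week (1.58 times) and 6443 ± 145 at 3 weeks (1.64 times). Core subunits went from 769 ± 27.0 to 1009 ± 11.9 (1.31 times), 983 ± 72.3 (1.28 times), 870 ± 57.1 (1.13 times) and 837 ± 50.4 (1.09 times) in the same order (SD, n = 2). These sums carry the TMM factors, and the core rise depends on them. Scaled by library size alone, the median log2 fold change of core subunits was 0.12, 0.20, -0.12 and -0.04 in that order. Accessory subunits had medians of 0.87, 0.80, 0.48 and 0.46 on that scale, where 0 core subunits were called in each comparison.

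**Figure D3:**
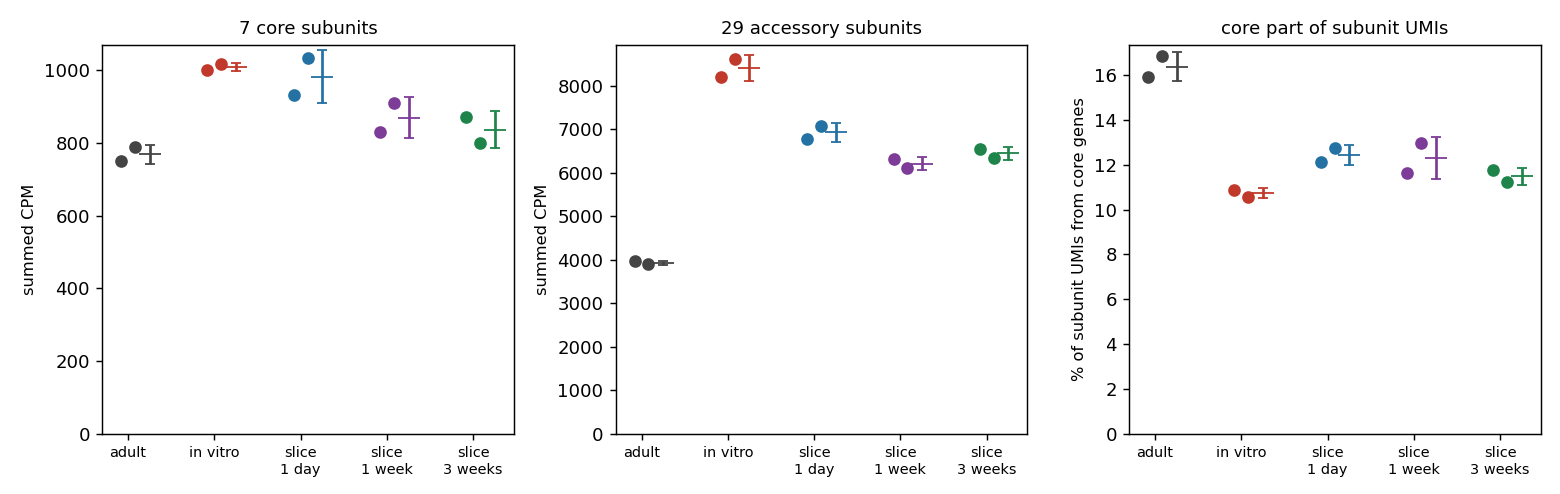
Summed CPM of the 7 core subunits (left) and 29 accessory subunits (middle), and the percent of subunit UMIs that came from core genes (right), per library with mean and SD (n = 2). The core percent lies at 15.9% and 16.8% in adult and between 10.6% and 13.0% in the cultured libraries.

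Transcript length moved with the same contrast and is given beside it. Accessory subunits had short mRNAs, with a median length of 732 bases in the GENCODE annotation, against 1623 for core subunits, 1451 for assembly factors and 2809 for all tested genes with a length. Of all tested genes under 1000 bases, 39.0% were higher *in vitro* than in adult, against 24.3% of those of 1000 to 2000 bases and 19.8% of longer ones. Leaving out respiratory chain and ribosomal protein genes, the first of these became 33.0%. At 1 day the shares were 46.9%, 30.1% and 20.5%, and at 3 weeks 31.6%, 19.0% and 16.1%. Among subunits of 1000 to 2000 bases, 5 of 6 accessory (Ndufa13, Ndufb5, Ndufc1, Ndufs4 and Ndufv3, but not Ndufa9) and 2 of 5 core subunits were higher *in vitro*. Under 1000 bases, 19 of 20 accessory subunits and 0 of 1 core subunit (Ndufs7) were higher. The part of length in these results was not tested.

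Nuclear factors such as NRF1, GABP and YY1 are known to act on many respiratory chain genes, and the promoters of 3 accessory subunits that were higher in all cultured groups and of Ndufaf7, which was lower in all of them, are shown. The following windows reach from 250 bases before to 50 after the annotated start (RefSeq, GRCm38.p6), 5′ to 3′ on the gene's strand. Capitals mark letters that match 1 of 5 searched motifs on either strand: GCGCANGCG for NRF1, CCGGAAGT for GABP, NAAGGTCA for ERR alpha, AAGATGGC for YY1 and GGGCGG for the GC box.
Ndufc1, chr3:51408906-51409205, minus strand: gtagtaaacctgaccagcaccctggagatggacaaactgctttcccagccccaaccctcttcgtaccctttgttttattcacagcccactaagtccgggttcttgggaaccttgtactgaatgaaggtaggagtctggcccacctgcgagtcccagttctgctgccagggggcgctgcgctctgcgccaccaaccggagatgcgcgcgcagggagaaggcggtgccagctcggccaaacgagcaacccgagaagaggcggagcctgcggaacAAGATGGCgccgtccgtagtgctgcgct
Ndufv3, chr17:31519865-31520164, plus strand: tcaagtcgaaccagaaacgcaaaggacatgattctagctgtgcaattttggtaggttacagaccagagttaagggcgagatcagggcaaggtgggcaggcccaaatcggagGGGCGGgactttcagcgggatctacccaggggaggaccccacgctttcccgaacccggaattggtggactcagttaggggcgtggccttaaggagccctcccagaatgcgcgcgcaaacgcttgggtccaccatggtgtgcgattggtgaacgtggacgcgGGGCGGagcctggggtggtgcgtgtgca
Ndufs5, chr4:123718137-123718436, minus strand: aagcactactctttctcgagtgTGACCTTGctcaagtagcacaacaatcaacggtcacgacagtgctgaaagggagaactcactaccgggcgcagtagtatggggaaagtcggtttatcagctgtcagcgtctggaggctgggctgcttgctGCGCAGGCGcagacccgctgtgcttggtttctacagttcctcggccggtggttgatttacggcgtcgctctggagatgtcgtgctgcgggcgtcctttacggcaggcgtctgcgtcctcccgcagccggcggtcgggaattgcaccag
Ndufaf7, chr17:78936885-78937184, plus strand: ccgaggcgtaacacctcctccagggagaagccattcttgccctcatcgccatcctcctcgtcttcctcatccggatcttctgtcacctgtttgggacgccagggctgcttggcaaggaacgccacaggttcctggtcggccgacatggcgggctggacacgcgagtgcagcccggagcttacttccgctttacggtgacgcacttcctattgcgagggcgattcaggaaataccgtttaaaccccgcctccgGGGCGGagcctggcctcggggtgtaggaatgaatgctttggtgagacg

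The Ndufc1 window held a YY1 match, that of Ndufs5 an NRF1 and an ERR alpha match, and those of Ndufv3 and of Ndufaf7, only GC boxes. Windows were found for 27 of 29 accessory subunits (29 windows), 5 of 7 core subunits and 6 of 7 assembly factors. NRF1 letters were in 9 of 29 accessory windows (31.0%), 0 of 5 core windows and 2 of 6 assembly factor windows, against 6.25% of all 32851 windows. YY1 letters were in 6 accessory windows (20.7%) and 1 core window, against 2.75% of all, and ERR alpha letters in 3 accessory windows (10.3%), against 4.69%. GABP letters were in 1 core window (Ndufs3) and no other window of a member, against 3.89% of all. GC boxes were in 14 accessory windows (48.3%), 2 core windows and 5 assembly factor windows (83.3%), against 35.7% of all. These are matches of letters, not sites, and no test was made of them.

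Between *in vitro* and slice 3 weeks microglia, both grown for about 3 weeks, 5 of 36 subunits were higher *in vitro* and 0 lower, where 13.3% of all genes were higher and 19.9% lower. The count of higher subunits was thus near the share of all genes. All 5 were accessory, as are 29 of the 36 subunits. They were Ndufb2 (log2 fold change 0.73 ± 0.13), Ndufb7 (0.71 ± 0.14) and Ndufb8 (0.59 ± 0.14) of the distal membrane arm, Ndufa11 (0.65 ± 0.15) of the proximal arm and Ndufa5 (0.67 ± 0.18) of the Q module. Ndufb7, for example, stood at 368 and 379 CPM *in vitro* and at 248 and 210 at 3 weeks. The other 31 had differences from -0.20 to 0.58, with a median over all 36 of 0.40. The calls of Ndufa5 and Ndufb8 were lost without slice 3 weeks replicate 2 (0.58 and 0.57), and that of Ndufa5 also without *in vitro* replicate 2 (0.72). The count was 4 to 12 as libraries were left out in turn, with 8 within 1 study label.

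Between 1 day and 3 weeks of slice culture, 3 subunits fell and 1 rose, where 13.9% of all genes were called higher and 12.8% lower. Ndufb6, a distal-arm subunit, fell from 196 and 195 CPM at 1 day to 124 and 105 at 3 weeks (log2 fold change -0.78 ± 0.14, edgeR adjusted p = 0.00245). Ndufa12, of the N module and a paralogue of the assembly factor Ndufaf2, fell from 279 and 318 to 196 and 150 CPM (-0.79 ± 0.17). Ndufab1 fell from 240 and 278 to 175 and 153 CPM (-0.66 ± 0.15), and all 3 were nearer to their adult level at the later time. Ndufa1 rose instead, by 0.67 ± 0.16 from 196 and 179 to 337 and 259 CPM. The call of Ndufa1 was lost without slice 3 weeks replicate 1 (0.46) or slice 1 day replicate 2 (0.61). Those of Ndufa12 and Ndufab1 were lost without slice 3 weeks replicate 2 (-0.60 and -0.56) or slice 1 day replicate 2 (-0.69 and -0.54). The other 32 subunits had a range of -0.53 to 0.51, and the median over all 36 was -0.19.

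Of the 7 assembly factors, 1 was lower *in vitro* than in adult and 0 were higher. At 1 day 2 were higher and 1 lower, at 1 week 3 were lower, and at 3 weeks 1 was lower. Of all genes, those called lower were 28.5% (*in vitro*), 25.3% (1 day), 13.6% (1 week) and 17.5% (3 weeks), and those called higher were 22.4%, 24.9%, 15% and 17.9%. The single factor lower in all 4 was Ndufaf7, a methyltransferase that acts early in assembly. It stood at 53.6 and 60.1 CPM in adult, 16.2 and 17.8 *in vitro*, 26.7 and 27.5 after 1 day in slices, 39.5 and 28.1 after 1 week, and 37.0 and 28.4 after 3 weeks. All cultured libraries were below both adult libraries, and the *in vitro* libraries were the lowest. The log2 fold change was -1.74 ± 0.17 *in vitro* (3.34-fold lower, edgeR adjusted p = 1.16e-05), -1.06 ± 0.17 at 1 day (adjusted p = 0.000476), -0.68 ± 0.22 at 1 week (adjusted p = 0.0390) and -0.81 ± 0.17 at 3 weeks (adjusted p = 0.00337). *In vitro* was also lower than slice 3 weeks, by -0.94 ± 0.17 (adjusted p = 0.00164). The call at 1 week, with 40 and 11 UMIs of the gene, was lost when any library was left out other than those of 3 weeks (-0.99 to -0.56), and the call at 3 weeks was lost without slice 3 weeks replicate 2 (-0.56). RLE scaling, DESeq2 and the replicate number as a block each lost the call at 1 week too. Counted per cell with no scaling for depth, Ndufaf7 was not lower in culture (0.45, 0.51, 0.52 and 0.33, none called), on a scale where the median of all genes was 2.04 *in vitro* and 1.05 to 1.49 in slices.

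Ndufaf1 and Ndufaf4 were called lower at 1 week. Like Ndufaf7, Ndufaf1 was below both adult libraries in all cultured libraries, but it was called at 1 week alone. Ndufaf1, a chaperone of the membrane-arm intermediate, stood at 18.4 and 18.2 CPM in adult, 15.2 and 14.4 *in vitro*, and 14.4 and 13.0 (1 day), 6.92 and 5.12 (1 week) and 10.9 and 13.7 (3 weeks) in slices. Its 1 week values were lowest (log2 fold change -1.52 ± 0.33, edgeR adjusted p = 0.00658) but rest on 7 and 2 UMIs, and the call was lost without replicate 1 of that group (-1.81). Ndufaf4, which acts with Ndufaf3 on the Q module, stood at 32.0 and 37.6 CPM in adult, 25.2 and 25.9 *in vitro*, 51.9 and 51.6 after 1 day in slices, 20.8 and 25.6 after 1 week, and 31.6 and 35.7 after 3 weeks. It was highest at 1 day (0.58 ± 0.14 against adult, adjusted p = 0.00603, just under the fold threshold), and was lower at 3 weeks than at 1 day (-0.62 ± 0.14). Its call at 1 week (-0.64 ± 0.21, adjusted p = 0.0417) was lost without slice 1 week replicate 1 (-0.41) and with 6 other libraries left out in turn (-0.71 to -0.53). RLE scaling, DESeq2 and the replicate number as a block each lost this call too. The call of 3 weeks against 1 day was lost without slice 1 day replicate 2 (-0.61) or slice 3 weeks replicate 1 (-0.54).

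Ndufaf5, a hydroxylase of an arginine of Ndufs7, stood at 5.57 and 6.05 CPM in adult, 7.80 and 10.4 *in vitro*, and 10.7 and 11.2 (1 day), 6.92 and 20.5 (1 week) and 5.17 and 7.59 (3 weeks) in slices. Ndufaf6, another Q-module factor, stood at 9.89 and 8.50 CPM in adult, 11.0 and 12.5 *in vitro*, 13.4 and 17.8 after 1 day in slices, 2.96 and 10.2 after 1 week, and 11.6 and 10.2 after 3 weeks. Both were called higher at 1 day (0.93 ± 0.32 and 0.78 ± 0.26, edgeR adjusted p = 0.0317 and 0.0251). Leaving out either adult library or slice 1 day replicate 2 lost both calls (0.59 to 0.98), and leaving out slice 1 day replicate 1 lost that of Ndufaf5 (0.96). The 1 week values rest on 7 and 8 UMIs of Ndufaf5 and 3 and 4 of Ndufaf6.

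The last 2 factors were called in none of the 6 comparisons. Ndufaf2, a late-acting factor, stood at 22.4 and 24.2 CPM in adult, 29.2 and 32.7 *in vitro*, and 33.8 and 34.3 (1 day), 25.7 and 17.9 (1 week) and 27.7 and 25.5 (3 weeks) in slices. Ndufaf3 stood at 42.6 and 44.3 CPM in adult, 45.5 and 50.2 *in vitro*, 45.1 and 43.7 after 1 day in slices, 35.6 and 33.3 after 1 week, and 42.7 and 46.9 after 3 weeks. Ndufaf2 passed the FDR *in vitro* and at 1 day (adjusted p = 0.0337 and 0.0109) with fold changes of 1.33 and 1.46.

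**Figure D4:**
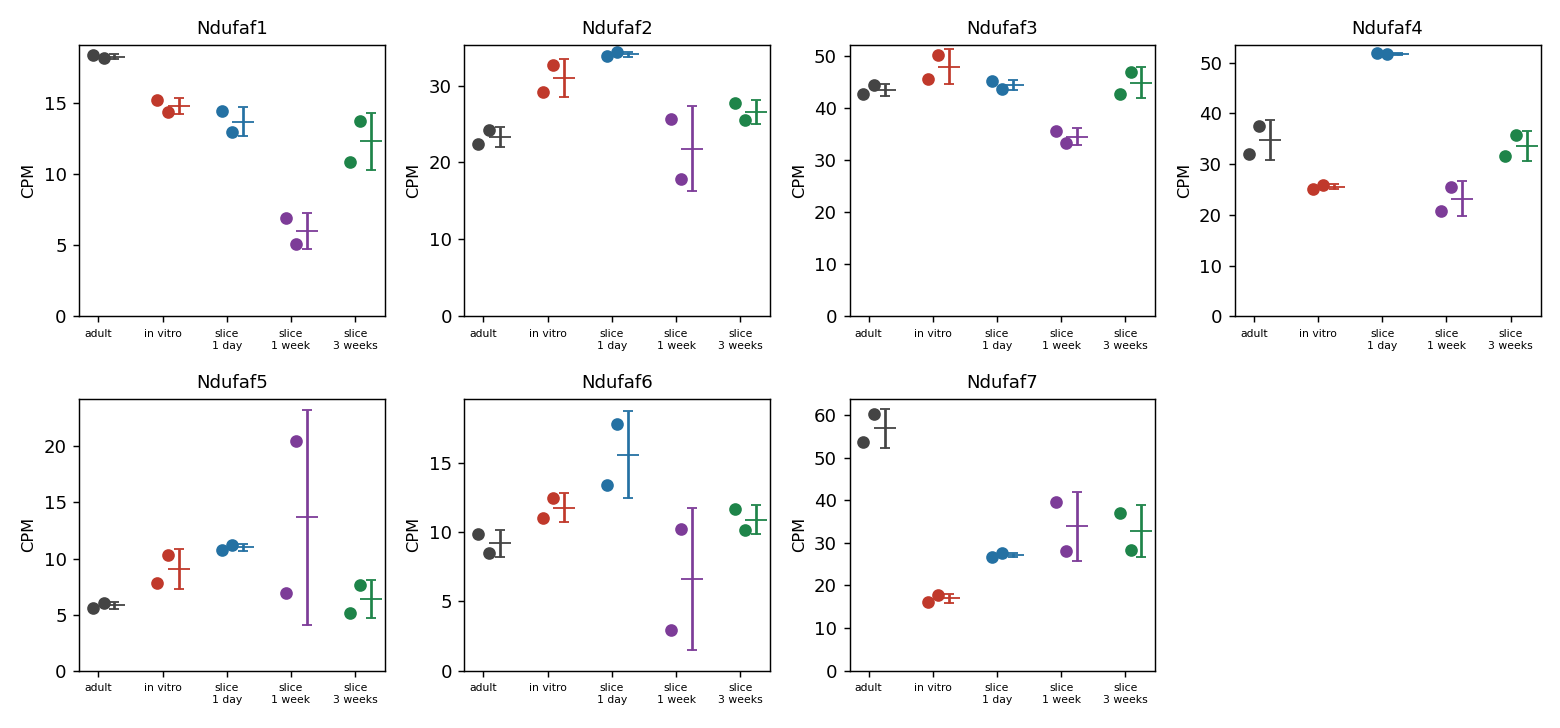
Level in CPM of the 7 assembly factors in each library, with the mean and SD of each group (n = 2). Ndufaf7 lies between 53.6 and 60.1 in adult and between 16.2 and 39.5 in cultured libraries, and no other factor is lower in all 4 cultured groups by the test.

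Other genes of the pathway were read from lists written for this comparison. Of 13 further assembly factors, 10 were tested. Tmem186 and Tmem70 were lower *in vitro* (log2 fold change -1.36 ± 0.21 and -0.61 ± 0.14), at 1 day (-0.93 ± 0.22 and -0.61 ± 0.15) and at 3 weeks (-0.93 ± 0.21 and -0.68 ± 0.14), and Tmem70 also at 1 week (-0.65 ± 0.19). Foxred1 was lower *in vitro* (-0.69 ± 0.18) and Nubpl, an iron-sulfur carrier, at 1 day (-0.88 ± 0.19). The single factor called higher against adult was Tmem126a, a membrane-arm factor, *in vitro* (0.86 ± 0.15) and at 1 day (0.82 ± 0.15). Over the list, 1 was higher and 3 lower *in vitro*, and the same counts held at 1 day, with 0 higher and 1 lower at 1 week and 0 higher and 2 lower at 3 weeks. The shares of all genes called lower were, in this order, 28.5%, 25.3%, 13.6% and 17.5%, and of those called higher 22.4%, 24.9%, 15% and 17.9%.

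The core of the membrane arm is encoded by 7 mitochondrial genes. Of these, 6 were higher *in vitro*, 0 at 1 day, 0 at 1 week and 4 at 3 weeks, with none lower, and their median log2 fold changes were 0.91, 0.25, 0.23 and 1.08. Of all genes, 22.4%, 24.9%, 15% and 17.9% were called higher in these comparisons. The genes summed to 0.373% and 0.289% of UMIs in adult, 0.476% and 0.509% *in vitro*, 0.325% and 0.335% after 1 day, 0.261% and 0.362% after 1 week, and 0.379% and 0.347% after 3 weeks. By this sum each slice group overlapped with adult, so the median over genes at 3 weeks is not the change of the sum. The cell filter removes cells by their mitochondrial UMIs and so bears on these genes directly. mt-Nd4l was the exception *in vitro* (-0.21 ± 0.26). At 3 weeks the called genes were mt-Nd3 (1.18 ± 0.31), mt-Nd4l (1.08 ± 0.26), mt-Nd5 (1.67 ± 0.26) and mt-Nd6 (1.76 ± 0.35).

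Members of the other respiratory complexes were read beside the shares of all genes called higher, which were 22.4% *in vitro*, 24.9% at 1 day, 15% at 1 week and 17.9% at 3 weeks. All 11 genes of complex IV were higher *in vitro*, 10 at 1 day, 11 at 1 week and 11 at 3 weeks, with medians of 1.58, 1.26, 1.15 and 1.18. For complex V, the ATP synthase, 15 of 15 were higher *in vitro*, 15 at 1 day, 14 at 1 week and 13 at 3 weeks, with medians of 1.25, 1.21, 0.95 and 0.77. Of 9 genes of complex III, 5, 7, 6 and 5 were higher, and of 4 of complex II, succinate dehydrogenase, 2, 2, 0 and 0. Of 10 regulators of mitochondrial biogenesis, 9 were tested, of which 0 were higher in culture than in adult and 1, 1, 1 and 3 were lower, where 28.5%, 25.3%, 13.6% and 17.5% of all genes were lower. Gabpb1, a subunit of the factor GABP, was lower in all 4 groups, with log2 fold changes from -1.11 ± 0.18 *in vitro* to -0.75 ± 0.19 at 1 day, and Esrra (-0.78 ± 0.18) and Tfam (-0.65 ± 0.17) were lower at 3 weeks. Nrf1 and Yy1 were called in none.

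The 2 matched genes outside the complex were Ndufa4 and Ndufa4l2. Ndufa4 stood at 264 and 290 CPM in adult, 477 and 496 *in vitro*, and 446 and 483 (1 day), 362 and 389 (1 week) and 380 and 295 (3 weeks) in slices. It was higher *in vitro* (0.81 ± 0.16) and at 1 day (0.75 ± 0.16). Ndufa4l2, known as a hypoxia-induced gene, had 0 UMIs in both adult libraries, 0 and 1 *in vitro*, 3 and 23 after 1 day in slices, 0 and 5 after 1 week, and 1 and 45 after 3 weeks. By pooled UMIs without TMM factors this was 1.97 CPM after 1 day, 3.41 after 1 week and 1.53 after 3 weeks, and the count of 0 in adult allows up to 0.156 CPM. Nearly all of its UMIs came from 1 library of each slice group.

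Within libraries, cells with more cell cycle UMIs held a higher share of subunit transcripts. Cells were thinned to 1800 UMIs each, which left out shallower cells: adult replicate 2 kept 1909 of 3527, adult replicate 1 kept 3386 of 3799, and the *in vitro* libraries kept all. Cells with 3 or more UMIs of 25 cell cycle genes were set against those with none, which is a range of a score and not a cell type. There were 6 libraries with at least 20 cells of each kind. The share of UMIs from subunits was 0.933% against 0.803% and 0.932% against 0.832% in the *in vitro* libraries, 0.941% against 0.737% and 0.896% against 0.811% at 1 day, and 0.727% against 0.693% and 0.762% against 0.665% at 3 weeks. The difference was 0.108 ± 0.0564 percentage points (SD, n = 6), higher in 6 of 6 libraries, with p = 0.0312 in an exact two-sided sign-flip permutation test, the smallest it can give. Cells with over 2% of UMIs from neutrophil markers had a lower subunit share, 0.487% to 0.574%, and were present at 1 day. Without them the 1 day shares were 0.941% against 0.765% and 0.936% against 0.862%, and the difference over the 6 libraries was 0.102 ± 0.0484 points, higher in 6 of 6 (exact permutation p = 0.0312). Cells between the 2 cuts numbered 130 to 697 per library. Adult and 1 week libraries had too few cells with 3 or more UMIs of the list for the test. In all thinned cells, 28 subunits were called higher *in vitro* than in adult, 22 at 1 day, 14 at 1 week and 14 at 3 weeks, where 2444, 2483, 930 and 1842 of 10721 genes were called higher. In thinned cells with no UMI of the list the counts were 26, 20, 6 and 14, where 2222, 2028, 738 and 1650 of 10155 genes were called higher.

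**Figure D5:**
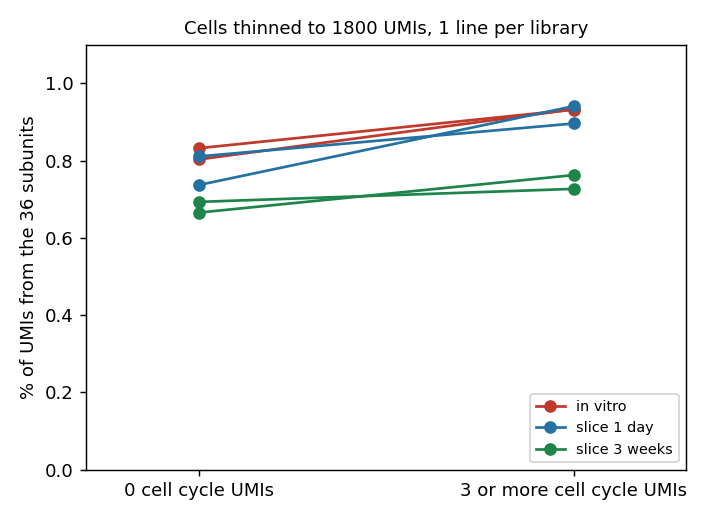
Percent of UMIs from the 36 subunits in cells with 0 and with 3 or more UMIs of the cell cycle list, after thinning to 1800 UMIs, with 1 line per library. All 6 lines rise, by 0.0337 to 0.204 percentage points.

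The cells of the slice libraries also differed among themselves in their subunit counts. The variance of subunit UMIs per thinned cell divided by its mean (the Fano factor, which is 1 for counting error alone) was 1.23 and 1.05 in adult, 1.41 and 1.48 *in vitro*, and 2.35 and 2.30 (1 day), 2.43 and 2.18 (1 week) and 2.08 and 2.15 (3 weeks) in slices. No slice library overlapped with an adult or *in vitro* library. Cells with over 2% of UMIs from neutrophil markers numbered 68 of 518 and 110 of 1014 at 1 day and 24 of 148 and 1 of 61 at 1 week, and 0 elsewhere. Their subunit share was 0.487% to 0.574%, against 0.697% to 0.855% in the other cells of those libraries. Without them the mean Fano factor was 2.11 at 1 day and 2.19 at 1 week, and the number of subunits higher than in adult was 24 at 1 day and 17 at 1 week, where 3001 and 1646 of 12024 genes were called higher. The 3 weeks libraries held none of these cells.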

How the data were processed

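Single-cell libraries of 5 groups of microglia, 2 libraries each, were analysed from the UMI count tables that the authors deposited. The submitters' processing notes name Cell Ranger 1.3.0 and mm10; the annotation release, and whether an aggregation step came before these tables, are not given in the sources used here. Counts of 13 repeated symbols were summed. The cell filter allowed at most 5% mitochondrial UMIs, at least 400 genes and at most 30000 UMIs, and doublets were not called. UMIs were summed per library, since cells are not replicates, and fitted in edgeR 4.0.16 (R 4.3.3) with TMM scaling, the filterByExpr filter (minimum count 10, 12157 genes) and the quasi-likelihood test with Benjamini-Hochberg adjustment over all genes. Calls needed an FDR of 5% and a fold change of 1.5. The test was checked on simulated data. Cells were thinned to 1800 UMIs for comparisons between cells, which left 16910 and removed mostly adult cells. Fold changes carry an SE derived here as the absolute log2 fold change divided by the square root of edgeR's F statistic. Levels carry their SD over libraries. Intervals and the limit that a count of 0 allows cover counting error only.

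The members, the gene lists and the tests were chosen with earlier results of these data known. Genes were named by rule: core subunits and assembly factors, the 6 subunits with the largest fold changes *in vitro* and the 4 with the largest at 3 weeks, both against adult, were given in every library, and any member could be named. Values of 1 core subunit are not reported here, and it stays in all counts and sums. Subunits used to illustrate a module, a length class or a promoter were chosen after their values were seen. Alternatives were other scalings (RLE, library size alone, UMIs per cell), no filter on low counts, DESeq2 1.42.0, other choices of cells, the study label, the replicate number as a block, and each library left out in turn. Leaving out cells with over 2% neutrophil-marker UMIs was chosen after seeing the data.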

Additional observations from a re-analysis of the deposited data

Results flagged for a closer look

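The cultured groups were measured against the same adult libraries, and the genes named here differed when cultured groups were compared directly by edgeR's quasi-likelihood test. Of all genes tested, 13.3% were higher and 19.9% lower *in vitro* than at 3 weeks, and 13.9% were higher and 12.8% lower at 3 weeks than at 1 day. Between *in vitro* and slice 3 weeks microglia, the log2 difference was 0.73 for Ndufb2, 0.71 for Ndufb7, 0.67 for Ndufa5, 0.65 for Ndufa11 and 0.59 for Ndufb8, all higher *in vitro*. Ndufaf7 was lower *in vitro* by -0.94. Ndufa4l2 passed the filter on low counts only through the slice libraries, so its call supports nothing. Its fitted difference was -5.75, which depends on the prior count and is no bound, and its call was lost without *in vitro* replicate 1 (-4.95), *in vitro* replicate 2 (-6.75) or slice 3 weeks replicate 2 (-2.43). By pooled counts its level at 3 weeks was 112 times that *in vitro* (95% interval 19.2 to 4533, counting error only), with 45 of 46 UMIs at 3 weeks from 1 library.

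Between slice 3 weeks and slice 1 day, the log2 difference was 0.67 for Ndufa1, -0.79 for Ndufa12, -0.78 for Ndufb6, -0.66 for Ndufab1 and -0.62 for Ndufaf4. Neutrophil markers summed to 7762 to 22520 CPM in the 1 day libraries and to at most 3.58 at 3 weeks. Without the cells over 2% of such UMIs, 1 subunit was called higher and 3 lower in this comparison, where 1675 of 12024 genes were called higher and 1499 lower.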

How the results depend on the processing

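Of 106 calls of the members whose values are reported, 57 held under every alternative other than UMIs per cell. Subunits called higher against adult went from 22 at 1 day, 17 at 1 week and 17 at 3 weeks to 36, 35 and 36 with UMIs per cell, where 8251, 5348 and 6801 of 12157 genes were called higher. At 1 week they went to 8 with library size alone (1518 of all genes), 9 without cells holding 3 UMIs of other types (all genes called higher went from 1822 to 547) and 6 in thinned cells without cell cycle UMIs (738 of 10155). Of 5 subunits higher *in vitro* than at 3 weeks, library size alone left 2, UMIs per cell gave 36 (1304 and 6402 of all 12157 genes), and 9 were called with no count filter, with all barcodes, in thinned cells with or without cell cycle UMIs, and without both slice 1 week libraries (1394 to 2196 of all genes), with 8 within 1 study label or fitting 4 libraries (1961 and 1759). From 1 day to 3 weeks, the 1 higher subunit became 0 with UMIs per cell, thinning, thinned cells without cell cycle UMIs, 4 libraries or without cells of other types (93 to 1082 of all genes higher, against 1689), and with the last the 3 lower also became 0 (95 of all genes lower, against 1557). That choice leaves 1 library each at 1 day and 1 week, of 81 and 45 cells.

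Assembly factors rest on few UMIs, and counts in parentheses are those of all genes. *In vitro* against adult, 1 was higher with no filter, all barcodes, no 1 week libraries or 4 libraries (3091 to 3483), and 6 with UMIs per cell (9767), and 3 were lower with library size alone (4718), 2 with thinning (2470) and 0 with UMIs per cell (571). At 1 day, 4 were higher with RLE, DESeq2, all barcodes, no neutrophil-marker cells, no 1 week libraries or 4 libraries (3001 to 3206), 6 with UMIs per cell (8251), 1 with the study label as a term or within 1 label (2966 and 2970), and 0 with library size alone, thinning, thinned cells without cell cycle UMIs or no cells of other types (1001 to 2723), and the 1 lower became 0 with UMIs per cell or no cells of other types (424 and 913) and 2 in thinned cells without cell cycle UMIs (1764). At 1 week, the 3 lower became 1 with RLE, DESeq2, thinned cells without cell cycle UMIs or 4 libraries (573 to 1477), and 0 with UMIs per cell, thinning or no cells of other types (164 to 765), and with UMIs per cell 2 were higher (5348). At 3 weeks 2 were lower with library size alone (3059), and with UMIs per cell 0 were lower (335) and 5 higher (6801). *In vitro* against 3 weeks, UMIs per cell gave 5 higher (6402) and 0 lower (674) and thinning 2 lower (1718). From 1 day to 3 weeks, 2 were lower with UMIs per cell or no 1 week libraries (2067 and 1565), and 0 with no filter, thinning, thinned cells without cell cycle UMIs, no cells of other types, or the study label as a term or within 1 label (95 to 2059).

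Directions turned for Ndufaf7 with UMIs per cell (0.45 *in vitro*, 0.51 at 1 day, 0.52 at 1 week, 0.33 at 3 weeks, and 0.12 *in vitro* against 3 weeks) and for Ndufaf4 at 1 week (0.60). Without cells of other types Ndufaf5 and Ndufaf6 stood at -0.21 and -0.24 at 1 day and Ndufaf4 at 0.0167 from 1 day to 3 weeks. In thinned cells without cell cycle UMIs Ndufaf4 stood at 0.0066 from 1 day to 3 weeks. The causes were not tested.

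With each library left out in turn, higher subunits against adult numbered 25 to 31 *in vitro*, 21 to 24 at 1 day, 13 to 18 at 1 week and 16 to 20 at 3 weeks, *in vitro* over 3 weeks 4 to 12, and from 1 day to 3 weeks 0 to 1 higher and 1 to 3 lower. Higher assembly factors numbered 0 to 1 *in vitro* and 0 to 4 at 1 day, and lower ones 0 to 3 at 1 week and 0 to 1 from 1 day to 3 weeks. Without adult replicate 2, Ndufb10, Ndufc2 and Ndufs4 lost their *in vitro* calls (0.54, 0.57 and 0.58). The difference between cells with 3 or more cell cycle UMIs and cells with none was 0.0891 to 0.123 points. It had p = 0.0625, the smallest that an exact permutation test of 5 libraries can give. The replicate numbers did not pair the libraries (correlations of -0.135 to 0.123 over 10 pairs). With the replicate number as a block, lower assembly factors at 1 week went from 3 to 1, and the other counts stayed within 1.5 times.

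The Fano factor rose with thinning to 3000 UMIs, to 1.67 *in vitro*, 2.89 at 1 day, 2.75 at 1 week and 2.42 at 3 weeks. It was 2.45 at 1 day and 2.51 at 1 week in cells without cell cycle UMIs, 2.11 at 1 day without neutrophil-marker cells and 2.63 at 1 week with all barcodes. Depth limits the slice 1 week group most, where an assembly factor had 2 to 40 UMIs per library.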
